A study of Mus musculus with 8 samples.

Results

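Interferon-stimulated genes that act at membranes, on nucleotides or as regulators of the response were followed in a mouse model of breast cancer that spreads to bone. The members were chosen by name, as the probe sets whose only gene symbol in the platform annotation is Bst2, Rtp4, Ifitm1, Ifitm2, Ifitm3, Rsad2, Cmpk2, Usp18, Xaf1 or Lgals3bp. All 10 genes were measured, by 15 probe sets, out of 18193 genes and 34945 singly named probe sets in all. Of the 10 genes, 6 had 1 probe set, 3 had 2 (Rtp4, Cmpk2 and Xaf1) and Rsad2 had 3.

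The series holds 8 one-colour arrays, 4 of primary tumours in the mammary gland and 4 of spine metastases, and per the design text each of the 4 mice gave 1 array of either kind. The mice were of the Balb/c strain, carried 4T1.2 tumours and, per the labels, differed by no genotype or treatment; their age is not given in the labels. 4T1.2 is a mammary carcinoma line that was cloned from the 4T1 line, so all tumours derive from 1 clone. The labels describe the material as isolated tumour epithelial cells at either site, and the sort or gate is not given in the sources used here.

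As background, type I interferons bind a receptor of the subunits Ifnar1 and Ifnar2 and, through the kinases Jak1 and Tyk2, activate transcription factors, Stat2 and Irf9 among them, that act at interferon-stimulated response elements in promoters. The genes switched on in this way include restriction factors, proteins that block a virus at a single step such as entry, replication or release. Tumour cells and the immune cells around them both express such genes, and their baseline level follows the interferon tone of the tissue.

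The comparison asked whether these genes differ between tumour cells in bone and the matched primary tumour. Most of them were lower in bone metastases. Of the 15 probe sets, 10 fell and 0 rose, at an adjusted p under 0.05 by limma with Benjamini-Hochberg adjustment over all 34945 probe sets, which is what called means below. Over all probe sets, 11.9% were called lower (4168, against 3046 called higher); after scaling each array to its 75th percentile, 3554 were lower and 4411 higher. Counted by gene, with the brightest probe set standing for each, 8 of 10 fell (Lgals3bp, Usp18, Rsad2, Rtp4, Cmpk2, Bst2, Ifitm3 and Xaf1) against 12.1% of all genes, and Ifitm1 and Ifitm2 were not called. On 10 of the 15 probe sets all 4 metastasis arrays lay below all 4 primary arrays, which held for 14.0% of all probe sets. The median log2 difference, metastasis minus primary, was -1.70 over the 15 probe sets and 0.09 over all probe sets. Of the 5 probe sets without a call, 3 (the second probe sets of Rtp4, Cmpk2 and Xaf1) lay below the array median on all 8 arrays, and the others were those of Ifitm1 and Ifitm2.

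**Figure D1:**
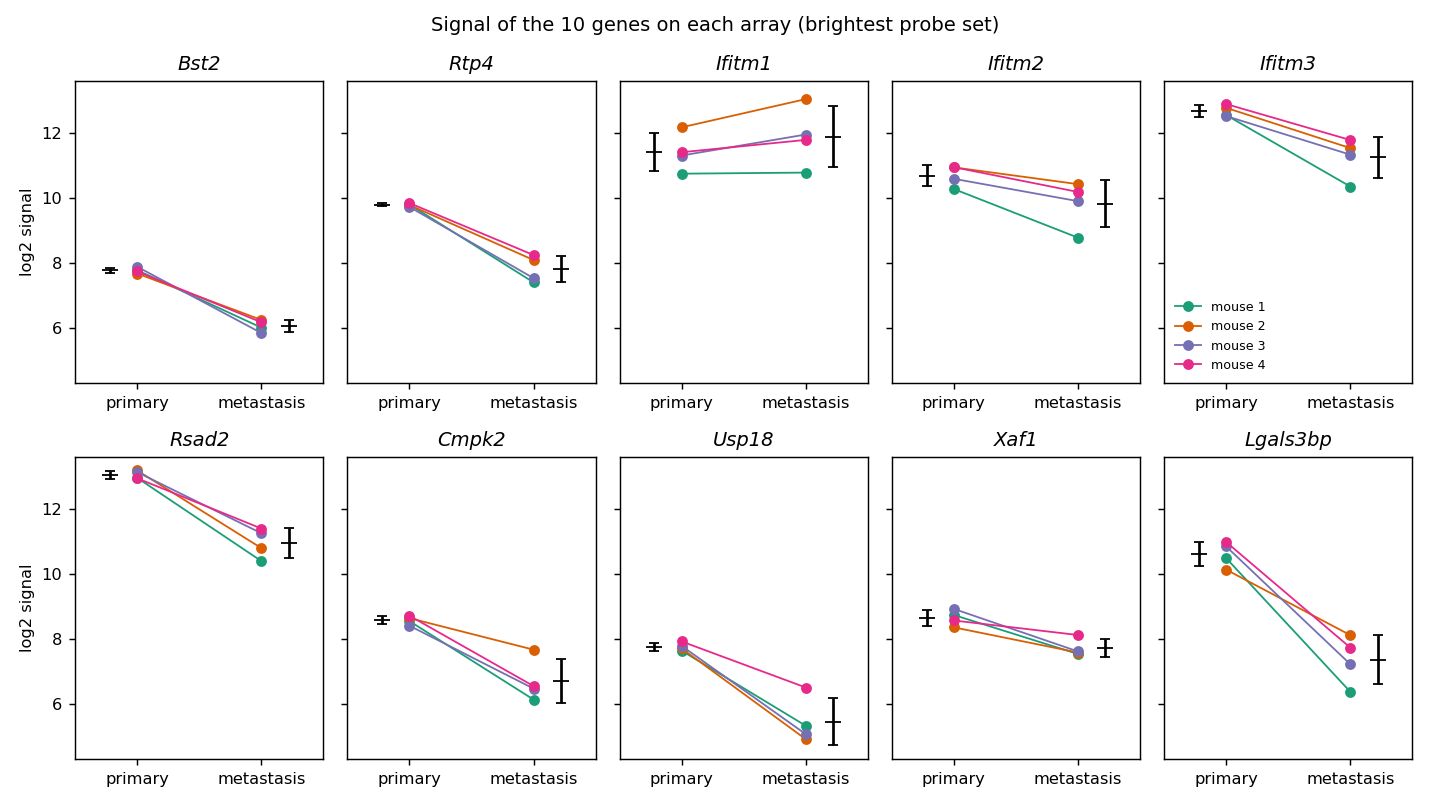
Each panel plots the log2 signal (vertical axis) of a gene's brightest probe set in the primary tumour and the metastasis, with a line for each of the 4 mice, and the black marks give the mean ± SD of each group. The lines run down in all 4 mice for every gene but Ifitm1, which runs up.

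Other features of the arrays moved with the same comparison. In log2 units, the signal of the actin control dropped from its 3' to its 5' probe set by 1.08 to 1.90 in primary tumours and by 4.55 to 6.18 in metastases, with no overlap (exact permutation p = 0.0286, the smallest that 4 against 4 arrays allow, adjusted p = 0.0429 over 12 values tested). The Gapdh control dropped by 1.55 to 2.59 in primary tumours and by 4.62 to 6.08 in metastases. The array medians did not overlap either, at 5.16 to 5.17 on primary and 5.23 to 5.42 on metastasis arrays. With the actin drop as a covariate, which is nearly tied to the group, limma called 0 of the 15 probe sets and 0 of all 34945. An unadjusted p under 0.05 was found for 6 of the 15 and for 4552 of all. The 10 called probe sets kept a negative sign, but the median difference over all probe sets also moved, from 0.09 to -0.17. The dim second probe sets of Cmpk2 (0.41 to -0.95, SE 0.66) and Xaf1 (0.05 to -0.65, SE 0.53) changed sign. How many of all probe sets kept their sign was not counted. Most macrophage markers were lower in metastases, with 8 of 10 called lower. Their mean log2 signal was 10.92 to 11.90 on primary and 8.14 to 9.77 on metastasis arrays (exact permutation p = 0.0286, adjusted p = 0.0429). The list was not uniform, since Csf1r (-0.74, SE 0.31) and C1qb (-0.28, SE 0.49) were not called. The mean log2 signal of the markers of granulocyte precursors (5 of 8 called higher), of the B lineage (6 of 6) and of osteoblasts (1 of 4, Ibsp) was higher on all metastasis arrays than on any primary array. Not all single markers were: Ltf, Elane and Lcn2, listed for granulocyte precursors, overlapped between the groups and were not called. Of 10 tumour epithelial markers 2 were called lower, and 9 had a negative log2 difference (median -1.05). Over all genes, 12.1% were called lower and 9.72% higher. The mean log2 signal of the epithelial markers was 8.29 to 8.99 on primary and 6.45 to 8.30 on metastasis arrays (exact permutation p = 0.0571, adjusted p = 0.0762). Krt8, a keratin of luminal cells, varied more between metastases (10.63 ± 2.59) than between primary tumours (13.20 ± 0.11, SD, n = 4 each). With metastases 1 and 3 left out, the arrays with low keratins in an earlier look at these data, 9 of the 15 probe sets were called lower and 0 higher, against 2816 and 2337 of all 34945 in the same fit. The part of RNA quality and of these cells in the results was not otherwise tested, and fewer cells of a type cannot be told apart from less RNA per cell in such samples.

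**Figure D2:**
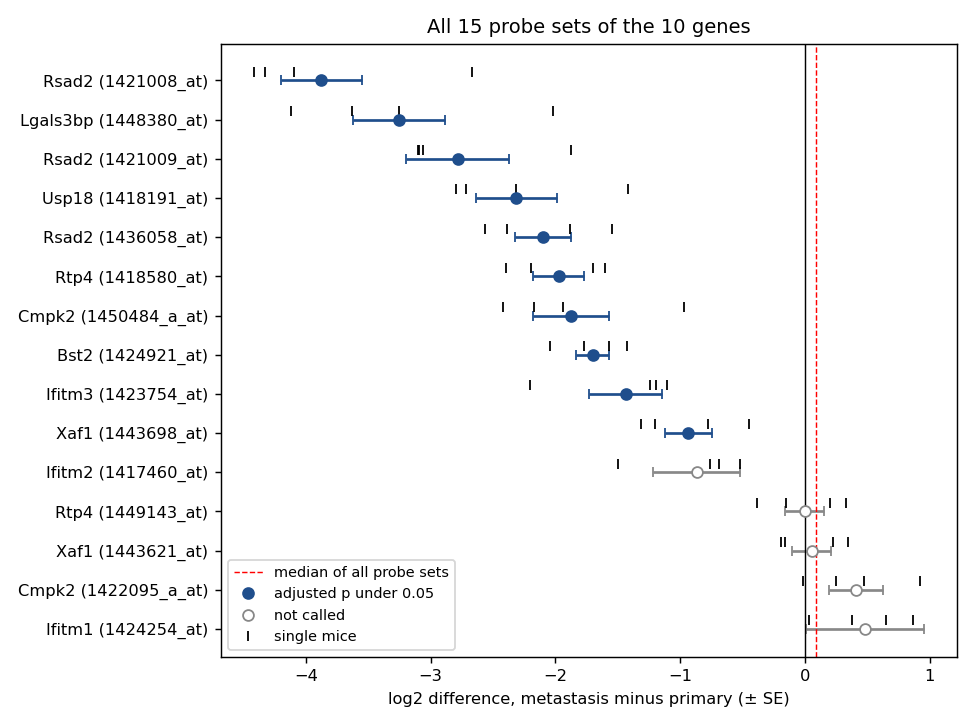
The horizontal axis gives the log2 difference, metastasis minus primary, of all 15 probe sets with its SE; filled points passed the adjusted p of 0.05, ticks are the 4 mice, and the dashed line is the median of all probe sets. The called probe sets run from -3.88 for one of Rsad2 to -0.93 for Xaf1, and those not called lie between -0.87 and 0.48.

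Bst2 encodes tetherin, a membrane protein that holds budding virions on the cell surface. Its log2 signals were 7.79, 7.68, 7.89 and 7.75 in primary tumours 1 to 4 and 6.02, 6.25, 5.85 and 6.18 in the matched metastases. All 4 metastases lay well below the lowest primary tumour, and the values within each group were close together. Bst2 fell by 1.70 on the log2 scale (SE 0.14), a 3.25-fold difference (limma adjusted p = 0.000388), and the single mice gave differences of -2.04 to -1.43. In mice Bst2 also serves as a surface marker of plasmacytoid dendritic cells, so the other markers of that cell were set beside it. All 6 (Siglech, Ccr9, Pacsin1, Cox6a2, Tcf4 and Spib) were called higher in metastases, against 9.72% of all genes. Their mean log2 signal ran from 6.05 to 6.40 on primary arrays and from 8.57 to 8.96 on metastasis arrays (exact permutation p = 0.0286, adjusted p = 0.0429). Siglech, a lectin receptor of these cells, changed by 1.27 (SE 0.14) and Ccr9, a chemokine receptor, by 4.82 (SE 0.46). Ccr9 lay below the array median on 4 arrays and Spib on 2, so that the size of their differences is not exact. Bst2 went down while these markers went up, and which cells gave the Bst2 signal was not tested. Tcf4 and Spib are also expressed by B cells.

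The promoter of Bst2 is printed because it holds the letters of an interferon-stimulated response element. Promoter sequences, from 250 bases before to 50 bases after the transcription start, came from RefSeq (build GRCm38.p6) and were found for 8 of the 10 genes. They were searched on both strands for the core of the response element, GAAANNGAAA, and for the gamma-activated site, TTCNNNGAA. The core was found in 4 of the 8 promoters (Bst2, Ifitm2, Ifitm3 and Rsad2) and in 3.44% of all 32851 promoters of that length. The gamma-activated site was found in 2 (Bst2 and Ifitm3) and in 8.30% of all promoters. Capitals mark each match to the core; in Bst2 2 overlapping matches start 130 and 124 bases before the transcription start, and a gamma-activated site that starts 136 bases before it overlaps the first. Lower case is the rest of the promoter on its own strand, at chr8:71537423-71537722 (minus strand).
Bst2: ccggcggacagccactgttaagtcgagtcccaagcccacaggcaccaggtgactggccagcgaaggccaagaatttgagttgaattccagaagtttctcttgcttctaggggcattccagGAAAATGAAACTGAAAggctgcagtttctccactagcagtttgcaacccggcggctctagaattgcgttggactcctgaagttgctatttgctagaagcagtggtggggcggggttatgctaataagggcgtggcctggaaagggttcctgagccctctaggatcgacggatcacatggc

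Rtp4 encodes a receptor transporter protein, a chaperone that helps receptors reach the cell surface and that is strongly induced by interferon. Primary tumours gave log2 signals of 9.81, 9.80, 9.74 and 9.86 on its brighter probe set and metastases 7.41, 8.10, 7.54 and 8.25. The primary tumours differed from each other by little (SD 0.05, n = 4), and the metastases were lower and more spread (SD 0.41, n = 4). The log2 difference was -1.97 (SE 0.20), 3.93-fold lower (limma adjusted p = 0.000953). The other probe set of Rtp4 ran from 4.10 to 4.52 in primary tumours and from 4.05 to 4.45 in metastases, below the array median on every array, and its difference of -0.00 (SE 0.16) was not called.

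The Ifitm genes encode small transmembrane proteins that stop enveloped viruses from fusing with the cell; Ifitm3 acts mainly in endosomes and Ifitm1 mainly at the plasma membrane. Ifitm1, Ifitm2 and Ifitm3 lie in 1 cluster on chromosome 7, with Ifitm5 and Ifitm6 as the outer neighbours among protein-coding genes. On these arrays their probe sets, 1 for each gene, did not move together. Ifitm3 gave log2 signals of 12.57, 12.79, 12.54 and 12.91 in primary tumours and 10.36, 11.55, 11.35 and 11.80 in metastases. The groups did not overlap, and metastasis 1 was the lowest. Ifitm3 fell by 1.44 on the log2 scale (SE 0.29), 2.71-fold lower (limma adjusted p = 0.0114). Without mouse 3 the difference was -1.52 and no longer called (limma adjusted p = 0.0709).

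Ifitm2 had log2 signals of 10.29, 10.95, 10.60 and 10.96 in primary tumours against 8.79, 10.44, 9.91 and 10.20 in metastases. The groups overlapped, since metastasis 2 lay above primary tumour 1, but each metastasis was below the primary tumour of its own mouse. The log2 difference of -0.87 (SE 0.35) was not called without the pairing (limma adjusted p = 0.117), and it was called with the replicate number as a block, that is within mice (SE 0.21, limma adjusted p = 0.0446). For Ifitm1 the values were 10.76, 12.19, 11.32 and 11.42 in primary tumours and 10.79, 13.06, 11.97 and 11.80 in metastases. Here the groups overlapped widely, mouse 2 was the highest at either site, and the metastasis lay above the primary tumour in all 4 mice, by 0.03 to 0.87. The log2 difference of 0.48 (SE 0.47) was not called (limma adjusted p = 0.491, or 0.146 with the replicate block).

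The differences between these genes were tested directly, as the within-array difference of a pair of genes compared between the groups, over 4 pairs. The log2 difference between metastasis and primary tumour was higher for Ifitm1 than for Ifitm2 by 1.35 and higher for Ifitm1 than for Ifitm3 by 1.92. It was higher for Ifitm2 than for Ifitm3 by 0.57. Each of these contrasts had the same direction in all 4 mice and an exact permutation p of 0.0286 (two-sided, adjusted p = 0.0381 over the 4 pairs), with the arrays taken as unpaired. The order Ifitm1, Ifitm2, Ifitm3, from the highest to the lowest difference, was thus the same in every mouse. These contrasts share genes and are not independent of each other. They were not run with the actin drop as a covariate. In that fit the single log2 differences were 1.13 (SE 1.82) for Ifitm1, -1.24 (SE 1.36) for Ifitm2 and -2.52 (SE 1.06) for Ifitm3, none of them called. The part of RNA quality in the contrasts was not tested.

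**Figure D3:**
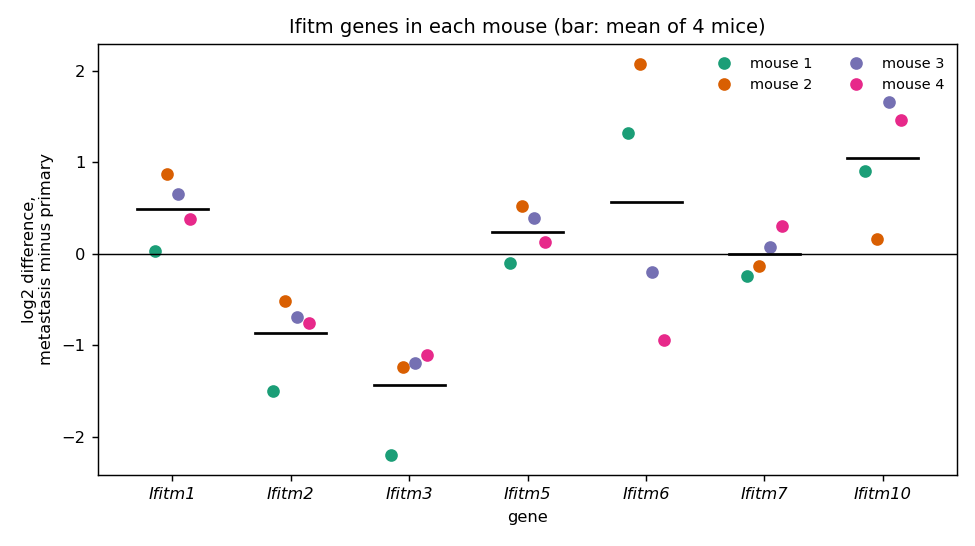
The vertical axis gives the log2 difference, metastasis minus primary, of each Ifitm gene's brightest probe set, with a point for each mouse and a bar for the mean. Ifitm3 lies at -2.20 to -1.11, Ifitm2 at -1.50 to -0.52 and Ifitm1 at 0.03 to 0.87, and of the relatives Ifitm10 was called higher.

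Of the other measured family members, Ifitm10 rose by 1.04 on the log2 scale (SE 0.29, limma adjusted p = 0.0336). Ifitm5, which osteoblasts express, changed by 0.23 (SE 0.18) and Ifitm7 by -0.00 (SE 0.15), neither of them called. Ifitm6 changed by 0.56 (SE 0.80), also without a call, and its metastasis 2 stood far above the other metastases (11.57 against 8.17 to 8.59).

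The promoters of the 3 clustered genes are shown side by side, and whether their matches bear on the differences was not tested. Capitals mark the response element core as above. In Ifitm2 (chr7:140955912-140956211, minus strand) 1 match starts 46 bases before the transcription start. In Ifitm3 (chr7:141010695-141010994, minus strand) 2 matches start at bases 3 and 20 after the start, and a gamma-activated site at base 14 overlaps the second. The window of Ifitm1 (chr7:140967826-140968125, plus strand) holds neither set of letters. Nor do the windows of Lgals3bp and Xaf1, which were both called lower.
Ifitm1: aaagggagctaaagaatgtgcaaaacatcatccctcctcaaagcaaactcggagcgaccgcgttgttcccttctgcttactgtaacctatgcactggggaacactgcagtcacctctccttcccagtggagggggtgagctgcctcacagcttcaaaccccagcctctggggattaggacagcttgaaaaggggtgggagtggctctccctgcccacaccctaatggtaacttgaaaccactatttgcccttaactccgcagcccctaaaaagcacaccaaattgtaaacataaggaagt
Ifitm2: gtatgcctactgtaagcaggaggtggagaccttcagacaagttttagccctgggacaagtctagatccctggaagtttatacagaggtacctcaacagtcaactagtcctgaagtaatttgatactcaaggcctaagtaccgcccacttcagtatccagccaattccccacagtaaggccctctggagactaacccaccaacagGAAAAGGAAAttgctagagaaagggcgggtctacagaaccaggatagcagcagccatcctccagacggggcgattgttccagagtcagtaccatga
Ifitm3: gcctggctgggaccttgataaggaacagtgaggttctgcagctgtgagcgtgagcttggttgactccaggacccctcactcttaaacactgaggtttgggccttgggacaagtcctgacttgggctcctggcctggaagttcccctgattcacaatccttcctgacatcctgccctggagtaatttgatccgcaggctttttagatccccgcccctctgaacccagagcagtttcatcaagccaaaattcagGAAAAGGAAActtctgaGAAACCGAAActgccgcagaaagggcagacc

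Rsad2 encodes viperin, a radical SAM enzyme that turns CTP into a chain terminator of viral RNA synthesis, and Cmpk2 encodes a mitochondrial nucleotide kinase. The genes are neighbours on chromosome 12. All 3 probe sets of Rsad2 fell in all 4 mice. The brightest gave log2 signals of 12.97, 13.19, 13.14 and 12.95 in primary tumours and 10.40, 10.80, 11.26 and 11.40 in metastases, with a gap of over 1 log2 unit between the groups. Its log2 difference was -2.10 (SE 0.22), 4.28-fold lower (limma adjusted p = 0.00105). The second gave 9.82 to 11.13 in primary tumours and 6.73 to 8.56 in metastases, a difference of -2.79 (SE 0.41, limma adjusted p = 0.00331).

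The third probe set of Rsad2 had values of 8.01, 9.47, 9.39 and 9.44 in primary tumours and 5.34, 5.38, 4.97 and 5.11 in metastases. Primary tumour 1 was lower than the others, and metastases 3 and 4 lay below the array median, so that the fold is not exact. Its log2 difference of -3.88 (SE 0.33, limma adjusted p = 0.000451) was the lowest among the members' probe sets. The 3 probe sets thus gave one direction and sizes from -3.88 to -2.10. With the actin drop as a covariate the differences were -3.62 (SE 0.65) for the brightest, -4.15 (SE 1.52) for the second and -2.33 (SE 1.13) for the third. None of them was called in that fit, and the part of RNA quality in the range of sizes was not otherwise tested.

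Cmpk2 had log2 signals of 8.55, 8.64, 8.41 and 8.72 in primary tumours on its brighter probe set, and 6.13, 7.67, 6.47 and 6.55 in metastases. The primary tumours were close together and metastasis 2 was the highest of its group, still below every primary tumour. Cmpk2 fell by 1.88 (SE 0.30), 3.67-fold lower (limma adjusted p = 0.00475). Its other probe set was below the array median on all 8 arrays, with 4.16 to 4.59 in primary tumours and 4.42 to 5.19 in metastases, and was not called (0.41, SE 0.22). The differences of Rsad2 and Cmpk2 on their brightest probe sets lay 0.22 apart, with Rsad2 the lower, against a spread of that contrast of 0.21 in primary tumours and 0.80 in metastases (SD, n = 4 each, exact permutation p = 0.80). This does not show that they changed alike: without mouse 2 the contrast was 0.18, with Cmpk2 the lower, and with the mean of each gene's probe sets it was -2.19 (exact permutation p = 0.0286).

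The promoters of both neighbours are given for comparison. That of Rsad2 (chr12:26456403-26456702, minus strand) holds 1 match to the core, on the opposite strand, which starts 120 bases before the transcription start. That of Cmpk2 (chr12:26468965-26469264, plus strand) holds no match to either set of letters.
Rsad2: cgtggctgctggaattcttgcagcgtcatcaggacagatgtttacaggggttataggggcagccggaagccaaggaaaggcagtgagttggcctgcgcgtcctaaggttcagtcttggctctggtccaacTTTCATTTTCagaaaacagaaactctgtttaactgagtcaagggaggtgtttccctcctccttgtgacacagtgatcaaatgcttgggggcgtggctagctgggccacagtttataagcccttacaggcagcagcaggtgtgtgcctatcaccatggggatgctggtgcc
Cmpk2: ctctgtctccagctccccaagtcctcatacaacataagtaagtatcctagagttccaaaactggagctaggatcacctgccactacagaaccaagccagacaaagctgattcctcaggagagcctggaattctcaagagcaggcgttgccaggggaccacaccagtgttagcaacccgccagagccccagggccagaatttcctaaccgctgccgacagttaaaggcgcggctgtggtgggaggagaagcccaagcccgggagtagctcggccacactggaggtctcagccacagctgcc

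Usp18 removes the ubiquitin-like modifier Isg15 from proteins and, by binding the receptor subunit Ifnar2, dampens interferon signalling. Its log2 signals were 7.64, 7.71, 7.79 and 7.92 in primary tumours and 5.32, 4.91, 5.06 and 6.50 in metastases. Primary tumours differed little, metastasis 4 stood above the other metastases, and metastases 2 and 3 lay below the array median, so that the size of the fold is not exact. Usp18 fell by 2.31 (SE 0.33), 4.97-fold lower (limma adjusted p = 0.00265), and the single mice gave differences of -2.80 to -1.42.

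Of the enzymes that attach Isg15, Herc6, the ligase in mice, changed by -0.71 (SE 0.29, limma adjusted p = 0.114) on its brightest probe set. Other probe sets of Herc6 were called lower, at -2.88 (SE 0.28) and -1.17 (SE 0.19), and the last, dim on all arrays, lay at 0.17 (SE 0.18). Those called lower lay below the array median on 3 and 4 of the metastasis arrays, so that the size of their differences is not exact. The call on Herc6 therefore rests on the probe set. Ube2l6, the conjugating enzyme, changed by -0.67 (SE 0.22, limma adjusted p = 0.0611) and was below the array median on all arrays. Uba7, the activating enzyme, changed by 0.39 (SE 0.18) on its brightest probe set and by -0.45 (SE 0.33) and -0.37 (SE 0.48) on the others, with no call. Isg15 itself was not analysed here.

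Xaf1 encodes a protein that binds the caspase inhibitor Xiap and favours apoptosis. On its brighter probe set the log2 signals were 8.74, 8.36, 8.93 and 8.57 in primary tumours and 7.54, 7.58, 7.61 and 8.12 in metastases. The groups did not overlap, and metastasis 4 came closest to the primary tumours. Xaf1 had the smallest of the called differences, -0.93 (SE 0.19), 1.91-fold lower (limma adjusted p = 0.0105). The call was lost after quantile normalization of the arrays (-0.56, limma adjusted p = 0.193), after scaling to the 75th percentile (-0.73, 0.0520), without mouse 1 (-0.85, 0.0538), without mouse 3 (-0.81, 0.0841) and with metastases 1 and 3 left out (-0.80, 0.0658). The dim second probe set of Xaf1 changed by 0.05 (SE 0.16). Xiap, the partner of Xaf1, changed by -0.94 (SE 0.24, limma adjusted p = 0.0252) on its brightest probe set, and its 6 other probe sets lay between -0.03 and 0.33.

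Lgals3bp encodes a secreted glycoprotein that binds galectin-3 and matrix proteins and is induced by interferon. It gave log2 signals of 10.49, 10.14, 10.85 and 10.99 in primary tumours and 6.37, 8.12, 7.22 and 7.73 in metastases. A wide gap parted the groups, and metastasis 1 was the lowest. Lgals3bp fell by 3.26 (SE 0.37), 9.55-fold lower (limma adjusted p = 0.00125), the largest difference among the members on brightest probe sets and the 133rd lowest of all 34945 probe sets. Lgals3, which encodes galectin-3, changed by -0.61 (SE 0.31, limma adjusted p = 0.192), and each metastasis was below its own primary tumour.

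Among the family relatives that remain, Cmpk1, the cytosolic counterpart of Cmpk2, had values of 10.91 ± 0.23 in primary tumours and 8.66 ± 2.03 in metastases (SD, n = 4 each) and was not called (-2.25, SE 0.86, limma adjusted p = 0.0965), although the groups did not overlap. Its other probe set, dim on all arrays, was called higher (0.75, SE 0.17, limma adjusted p = 0.0177). Rtp3 lay below the array median on all arrays and changed by 0.53 (SE 0.36). Of the 8 measured relatives, by brightest probe set, 1 was called lower (Xiap) and 1 higher (Ifitm10), close to the 12.1% and 9.72% of all genes. Rtp1, Rtp2 and Usp41 were not analysed here.

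Other genes of the interferon pathway were counted for comparison, 41 of them measured. By the same gene-level fit 22 were lower and 0 higher, against 12.1% and 9.72% of all genes, and 19 were not called; the median log2 difference was -1.18, against -1.79 for the 10 genes and 0.09 for all genes. The lowest were Ifit2, which binds viral RNA, at -3.72 (SE 0.40), Epsti1 at -3.24 (SE 0.46) and Oasl1, which represses translation of Irf7, at -3.10 (SE 0.44). On metastasis 3, Ifit2 (4.17) and Epsti1 (4.78) lay below the array median of 5.35, so that the size of their differences is not exact. The count was 11 without mouse 3, 14 without mouse 4 and 0 with the actin drop as a covariate (9 at an unadjusted p under 0.05 by limma). Over all genes, 2207 were called lower, and the same fits called 708, 1015 and 0 (2470 at an unadjusted p under 0.05 in either direction). The receptor subunit Ifnar2, to which Usp18 binds, was called lower (-1.44, SE 0.41, limma adjusted p = 0.0361), and Ifnar1 was not called (-0.55, SE 0.29, 0.197). Of the kinases, Jak1 was called lower (-2.34, SE 0.67, limma adjusted p = 0.0383) and Tyk2 was not called (0.26, SE 0.17). Jak1 was spread between metastases 1 to 4, at 8.49, 9.02, 6.91 and 5.53 (SD 1.58, against 0.12 in primary tumours). Metastases 3 and 4, the lowest for Jak1, also had the largest actin drops (5.72 and 6.18), and the part of RNA quality in its difference was not tested. The transcription factors Stat2 and Irf9 were not called (-0.22, SE 0.30, and -0.52, SE 0.20). The list was drawn up with earlier results of these data known and is no independent evidence of direction.

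**Figure D4:**
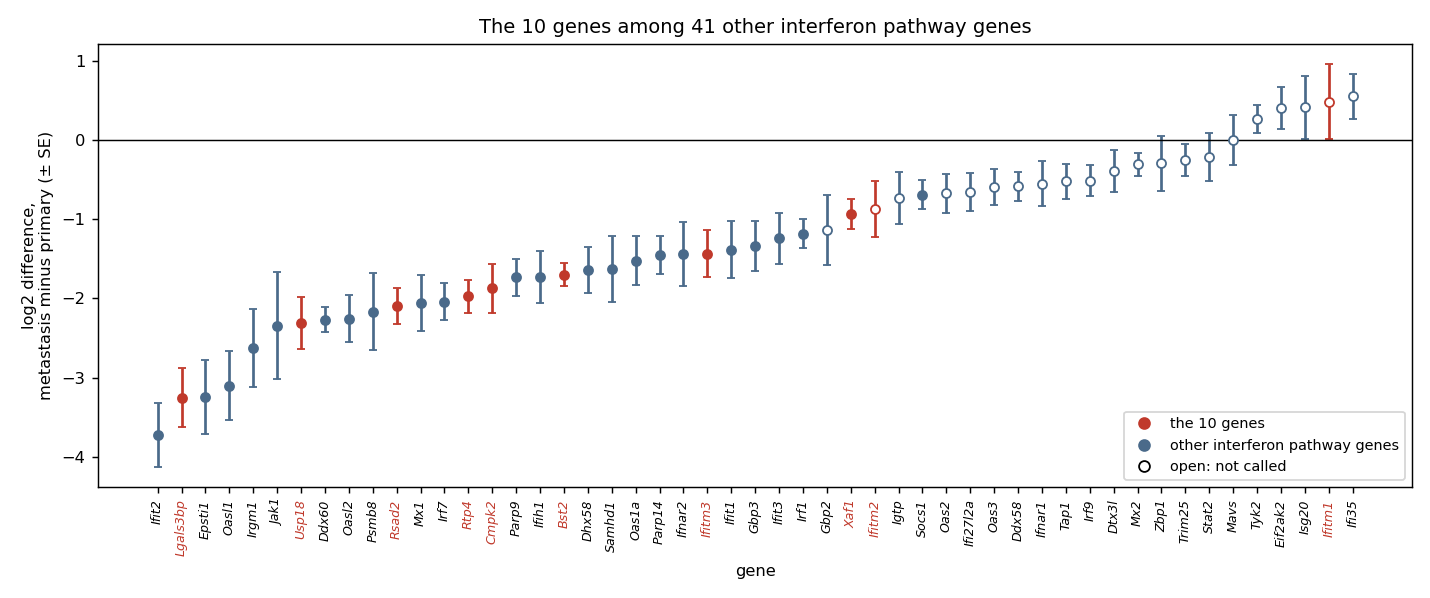
The vertical axis gives the log2 difference, metastasis minus primary, with its SE for the 10 genes (red) and 41 other interferon pathway genes (blue), ordered by size, and open points were not called. Lgals3bp at -3.26 lies near the low end beside Ifit2 at -3.72, and Ifitm1 at 0.48 lies near the high end beside Ifi35 at 0.55.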

How the data were processed

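Gene expression was measured on 8 arrays, 4 of primary 4T1.2 tumours and 4 of matched spine metastases, from RNA amplified in 2 cycles per the labels. The deposited table holds a log2 signal for every probe set on every array; the submitters' processing notes name RMA as the tool used. Its version, the arrays normalized together and any later step are not given in the sources used here. RMA corrects background, quantile-normalizes and summarises probes, yet the deposited array medians differed between the groups. They ran from 5.16 to 5.17 on primary and from 5.23 to 5.42 on metastasis arrays (exact permutation p = 0.0286, adjusted p = 0.0429 over 12 values tested). All sample columns were used, and none had missing values. Scanner files were not used, so background and detection were not recomputed, and the number of arrays limits the precision.

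Of 45101 probe sets, 34945 carried a single gene symbol in the annotation, and the others were left out (64 controls, 932 with several symbols, 9160 with none listed). The gene identifiers of 34741 were found in the RefSeq table of GRCm38.p6. The sites were compared, metastasis minus primary, by limma (version 3.58.1, R 4.3.3; lmFit and eBayes), unpaired and unfiltered, over these probe sets and, in a second fit, over 18193 genes with the brightest probe set each, with Benjamini-Hochberg adjustment at 0.05; the code was tested on simulated data. Exact permutation tests took the arrays as unpaired. The replicate numbers pair samples from the same mouse per the series' design text; the correlation of deviations from the group means of same-numbered arrays ran from -0.10 to 0.16. Alternatives were another scaling, quantile normalization, a filter on dim probe sets, the replicate block, leaving out arrays or mice, the rule for a gene's probe set, an intensity trend and the actin drop as a covariate.

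All members are named with every probe set; of the other lists, the conjugation enzymes and relatives are named in full and the pathway list by its 3 largest called falls. Naming Ifnar1, Ifnar2, Jak1, Tyk2, Stat2, Irf9, Siglech, Ccr9, Ibsp, Ltf, Elane, Lcn2, Krt8, Csf1r and C1qb was decided after their values were seen. The members and lists were chosen with earlier results of these data known.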

Additional observations from a re-analysis of the deposited data

Results flagged for a closer look

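In 76 groups of 4 arrays, those of the members, conjugation enzymes and relatives, 5 single arrays stood apart from the rest of their group by Dixon's criterion, which chance alone lets through in about 1 of 20 groups. Among the members these were primary tumour 1 on the third Rsad2 probe set, at a log2 signal of 8.01 against 9.39 to 9.47 for the others, and metastasis 4 on the brighter Xaf1 probe set, at 8.12 against 7.54 to 7.61. Primary tumour 1 was the lowest of its group on that Rsad2 probe set and also on the second one (9.82), but not on the brightest. Metastasis 2 stood apart on Ifitm6 (11.57 against 8.17 to 8.59) and on a Herc6 probe set (4.14 against 4.53 to 4.58), and metastasis 1 on a dim Xiap probe set (3.15 against 3.50 to 3.55).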

How the results depend on the processing

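The count of member probe sets called lower was 10, and it ran from 8 to 11 over the alternatives other than the actin covariate, with 11 under the replicate block and 8 without mouse 3, where Ifitm3 and Xaf1 were not called; of all 34945 probe sets, 4168 were called lower, 3492 under the block and 1285 without mouse 3. By gene it was 8 and ran from 6 to 9 over the same alternatives. The block changed no member's call but that of Ifitm2. With the actin drop as a covariate the counts were 0 for member probe sets, 0 for member genes and 0 for other pathway genes by limma (6, 5 and 9 at an unadjusted p under 0.05), as they were for all 34945 probe sets and all 18193 genes (4552 and 2470), and the median SE over all probe sets rose from 0.21 to 0.70. Leaving out single arrays or mice moved the count of other pathway genes, 22, between 11 and 23. On single probe sets, all members but Ifitm2, Ifitm3 and Xaf1 kept the side of the threshold under each of these alternatives other than the actin covariate. The contrast of Rsad2 and Cmpk2 was -2.19 with the mean of each gene's probe sets and past the threshold, against -0.22, and the Cmpk2 mean includes its dim probe set. The 75th percentile scaling shifted the median difference over all probe sets from 0.09 to 0.29, so that differences near 0, such as those of the dim probe sets of Rtp4 and Xaf1, have no settled direction. Among the members, low signal limits the folds of Usp18 and the third Rsad2 probe set.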
